A study of Mus musculus with 6 samples.

Results

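Genes of the spliceosome and of splicing regulation were taken from 6 RNA sequencing libraries of mouse vascular smooth muscle cells by their symbols: those starting with Snrp, Srsf, Sf3a, Sf3b, Hnrnp, Prpf, Lsm, U2af, Rbm, Luc7l, Tra2, Srrm, Ptbp, Celf, Mbnl or Clk, with a number after Lsm, Rbm and Clk. The rule found 71 of the 7384 genes listed in each library's table, and all 71 passed the filter on low values. The cells had been taken from aorta into culture; 3 samples were labelled siSirt6, a knockdown of the deacylase gene Sirt6, and 3 Control, each for 48 h. No other genotype, strain, age or agent is given, nor what the controls received, and the labels do not say whether the 3 samples of a group came from separate animals or cultures, so p-values measure the spread between these samples only.

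Introns are removed from pre-mRNA by the spliceosome, which is built from small nuclear ribonucleoprotein particles (snRNPs). Each particle holds a small nuclear RNA wrapped in a ring of Sm or Lsm proteins, with further proteins specific to the U1, U2, U4, U5 or U6 particle. Which splice sites are used is tuned by regulatory RNA-binding proteins: SR proteins (Srsf) mostly promote exon inclusion, hnRNP proteins often oppose it, and the Celf and Mbnl families act against each other on many exons of developing muscle. In smooth muscle, Ptbp1 is known for repressing exons that contractile cells include.

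The 71 genes were divided into a core snRNP class of 29 genes (Snrp, Sf3a, Sf3b, Prpf without the kinase Prpf4b, and Lsm2 to Lsm8), a regulatory class of 40 genes (the other families and Prpf4b) and 2 Lsm genes with roles outside the spliceosome, Lsm11 and Lsm14a. GENCODE lists 145 protein-coding genes under the rule, of which 40 are core and 99 regulatory; those outside the tables were not analysed here. All 12 annotated Snrp genes were in the tables, against 11 of 39 Rbm genes, 10 of 20 Hnrnp genes and 7 of 11 Srsf genes. The tables hold almost only genes that differ between the groups: 99.8% of the 7179 genes tested were called at an adjusted p of 0.05 (limma), 50.5% of them higher and 49.3% lower. That a member was called is therefore no finding, and the results below are about direction and size.

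Sirt6, the targeted gene, had 251.7, 257.0 and 270.4 normalised reads in the Control samples and 44.5, 59.8 and 63.5 in the siSirt6 samples (log2 -2.21 ± 0.141 SE, limma adjusted p = 1.16e-15). Values have the form of reads divided by 1 factor per library, and their sums over the listed genes ran from 14065348 to 14108355 in Control and from 15208769 to 15352854 in siSirt6. Of 14 fixed markers of contractile smooth muscle 10 were listed, none at 0, with sums from 89660 to 89864 in Control and from 137393 to 138549 in siSirt6. Acta2 made up most of that sum (mean 58250 in Control and 96840 in siSirt6); 8 of the 10 rose, and Smtn (-0.30) and Mylk (-0.32) fell. Markers of other cells moved too. The 10 listed endothelial markers (of 12) summed to between 2938 and 3207 in Control and between 4441 and 4556 in siSirt6, the 5 listed neuronal markers (of 9) to between 2407 and 2557 and between 4435 and 4624, and the 3 listed macrophage markers (of 12) to between 1777 and 1822 and between 1978 and 2018. The 10 listed fibroblast markers (of 12) went from between 109607 and 110434 to between 94207 and 95791; most of that sum was Gsn (mean 72100 and 57430), 6 of the 10 fell, and Dpt, Ly6a, Lum and Serpinf1 rose. Of these markers only the neuronal Snap25 was at 0 in any library. Flt1 made up most of the endothelial sum (mean 1998 in Control and 2557 in siSirt6), and Lyz2 most of the macrophage sum (1498 and 1616). Most of the neuronal sum was Tubb3 (1321 and 2982) and Map2 (1108 and 1375). The part of other cell types in the results below was not tested, and in bulk RNA fewer cells of a type cannot be told apart from less RNA per cell.

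As deposited, most genes of the core particles were higher in siSirt6 and most regulators were lower. Of the 29 core genes 26 rose and 3 fell, with a median log2 fold change of 0.28; of the 40 regulatory genes 11 rose and 29 fell, with a median of -0.21. Over all tested genes 50.5% rose and 49.3% fell, with a median of 0.08. The split was present in each siSirt6 library: the median difference from the Control mean (log2) was 0.288, 0.258 and 0.229 for the core class and -0.181, -0.173 and -0.155 for the regulatory class. Summed values of core genes were 0.437, 0.434 and 0.430 of those of regulatory genes for Control and 0.529, 0.532 and 0.522 for siSirt6, so the groups did not overlap. The changes were mostly small: a log2 change of at least 0.5 was reached by 2 core genes (both higher), by 4 regulatory genes (2 higher and 2 lower) and by Lsm11, against 31.5% of all tested genes. The counts depended on processing. When each library was scaled to its listed total, 17 core genes rose. Removal of the trend with transcript length and GC, described below, left 14 core genes higher and 5 lower. It took the difference of the class medians from 0.49 to 0.15.

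**Figure D1:**
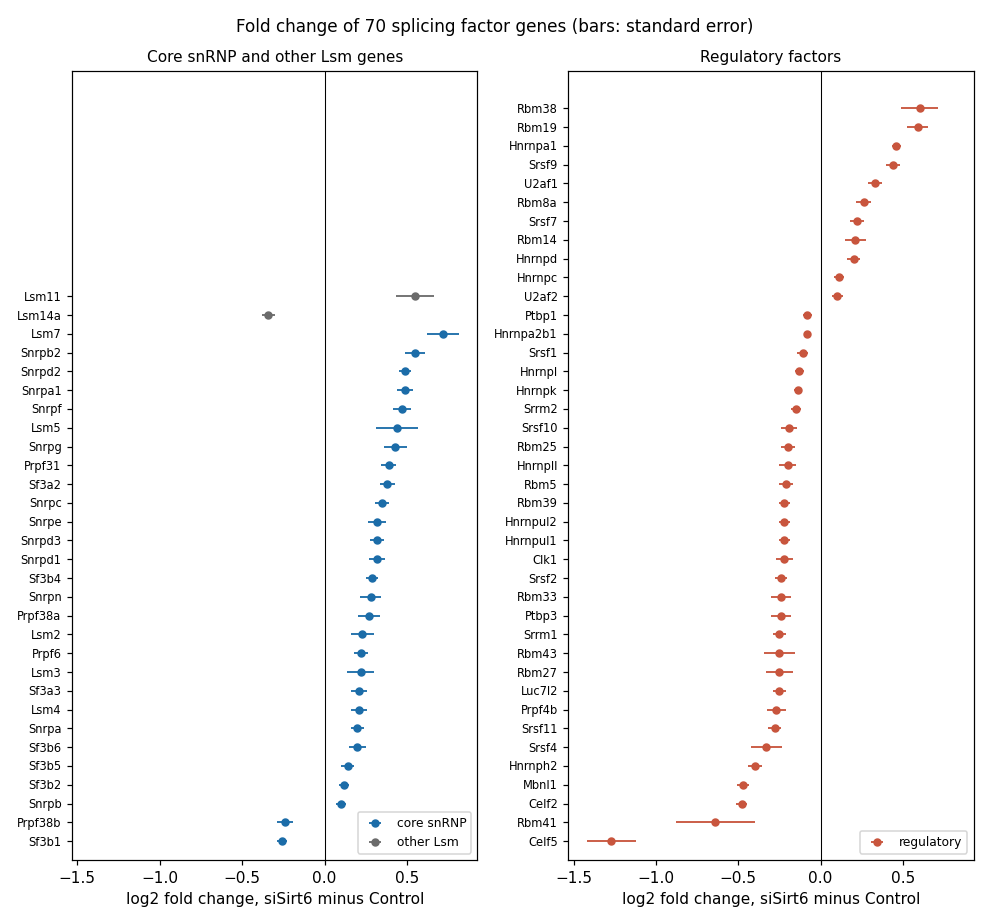
Log2 fold change (siSirt6 minus Control, horizontal axis) of 70 of the 71 genes with its standard error; in blue are core snRNP genes, in grey the other Lsm genes and in red the regulatory factors. Of the core genes, 26 lie right of zero, and of the regulatory factors, 29 of 40 lie left of it.

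The promoters of the members were searched for common motifs. RefSeq promoter windows (GRCm38.p6, 250 bases before to 50 after a start) were matched by symbol for 58 of the 71 genes, 23 core and 33 regulatory. The letters CCGGAAG, the core of ETS-family binding motifs, were found on either strand in 36.7% of 30 core windows, 18% of 50 regulatory windows and 8.86% of all 32851 windows. CCAAT was found in 36.7%, 46% and 37.4%, GGGCGG in 56.7%, 58% and 35.7%, TATAAA in 6.67%, 12% and 13.6%, CACGTG in 6.67%, 12% and 7.15%, the NRF1 motif in 0%, 4% and 0.971%, and the YY1 motif AAGATGGC in 10%, 6% and 2.75%. Letters alone do not show binding, and windows of 1 gene, as well as GGGCGG matches, can overlap. The comparison is with windows of all genes, not only of the tested ones. A higher share can therefore not be read as particular to these classes. The 100 bases before the start are printed for 4 members, chosen after their values were seen, with these motifs in capitals: Snrpb2 and Rbm19, which rose and hold CCGGAAG or its complement CTTCCGG, and Hnrnpa1 and Hnrnph2, an hnRNP pair that moved apart and of which both hold CCAAT or ATTGG and a GC box. The CACGTG at the end of the Rbm19 stretch is also in capitals. CCGGAAG or its complement also stands in the 100 bases before a start of Sf3a2, Sf3a3, Sf3b2, Sf3b6 and Snrpc, which rose. Prpf4b and Srsf11, which fell, hold it there too. Whether the motif goes with the direction of change was not tested.
Snrpb2, chr2:143062969-143063068, plus strand: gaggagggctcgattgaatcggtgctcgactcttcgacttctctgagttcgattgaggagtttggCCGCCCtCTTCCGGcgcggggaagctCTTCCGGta
Rbm19, chr5:120116413-120116512, plus strand: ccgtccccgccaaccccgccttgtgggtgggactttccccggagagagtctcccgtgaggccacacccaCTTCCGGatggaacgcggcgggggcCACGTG
Hnrnpa1, chr15:103240297-103240396, plus strand: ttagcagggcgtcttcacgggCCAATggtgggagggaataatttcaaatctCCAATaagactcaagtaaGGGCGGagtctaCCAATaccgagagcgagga
Hnrnph2, chrX:134601079-134601178, plus strand: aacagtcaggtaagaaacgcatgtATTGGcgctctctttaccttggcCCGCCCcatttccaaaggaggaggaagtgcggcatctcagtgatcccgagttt

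All 12 Snrp genes rose, with log2 fold changes between 0.10 and 0.55. These encode the Sm ring and proteins specific to the U1 and U2 particles. The family's median transcript was 1204 nt, and 84.1% of all genes between 67 and 1618 nt rose. Once the trend on length and GC was removed, 6 of the 12 were higher, 2 were lower and 4 had no call. For the 7 genes of the Sm ring these counts were 3, 1 and 3. Snrpd2, a subunit of the Sm ring, stood at 2116.4, 1954.1 and 1956.7 in Control and 2854.7, 2854.5 and 2770.3 in siSirt6. Every siSirt6 library lay above every Control library, a rise of 1.41-fold (log2 0.49 ± 0.0353 SE, adjusted p = 2.54e-14). Snrpf, its neighbour in the ring, read 594.2, 629.0 and 579.5 against 839.5, 839.1 and 813.8 (1.38-fold, log2 0.47 ± 0.0566 SE), again without overlap. The other Sm genes rose less or about as much: Snrpg by 0.43, Snrpd1, Snrpd3 and Snrpe by 0.32 each, and Snrpb by 0.10 on the log2 scale. Snrpb was the most abundant core gene per length, at 3280 normalised reads per kb of transcript in Control, and went from 3860.1, 3814.7 and 3741.4 to 4167.9, 4116.3 and 3928.6. Its direction was the least firm of the family. It turned to -0.02 (log2) when each library was scaled to its listed total, and the call was lost with edgeR on 5 libraries (Snrpb log2 fold change 0.06, adjusted p = 0.0769) and DESeq2. Snrpn, the tissue-restricted relative of Snrpb from an imprinted locus, rose by 0.28; it overlaps Snurf, and their reads may not be separable. Sf3a2, Snrpd3, Srsf2, Srrm2, Lsm14a and Hnrnpd overlap other listed genes on the opposite strand, and many Snrp, Lsm and Hnrnp genes have near-identical pseudogenes, so their counts carry that uncertainty.

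The proteins specific to the U2 particle held the largest Snrp change. Snrpb2, whose product binds the U2 RNA, lies on chromosome 2 (GRCm38, 143063039 to 143072853, plus strand) and stood at 523.0, 535.5 and 531.2 in Control and 780.2, 735.0 and 808.6 in siSirt6. This was a 1.46-fold rise (log2 0.55 ± 0.0595 SE, adjusted p = 6.93e-10), well outside the spread of either group. Its partner Snrpa1 read 839.2, 820.8 and 822.8 against 1168.8, 1121.6 and 1205.1 (1.41-fold, log2 0.49 ± 0.0482 SE), with the Control values close together and all siSirt6 values higher. Of the U1-specific genes, Snrpc rose by 0.35 and Snrpa by 0.20.

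The SF3 complexes, which hold the U2 particle at the branch point, were split in the deposited values. The 2 listed Sf3a genes rose (Sf3a2 by 0.38, Sf3a3 by 0.21), as did Sf3b4 (0.29), Sf3b6 (0.20), Sf3b5 (0.14) and Sf3b2 (0.12). Sf3a3 read 1002.1, 1013.6 and 1089.4 against 1219.2, 1205.1 and 1170.8, and Sf3b2, the densest of the Sf3b genes, 3563.5, 3402.9 and 3603.3 against 3752.6, 3875.1 and 3857.8, both without overlap. Scaled to listed totals, Sf3a3 (0.09), Sf3b5 (0.02), Sf3b6 (0.08) and Sf3b2 (0.001) lost their calls (adjusted p from 0.0601 for Sf3a3 to 0.963 for Sf3b2), as did Snrpa, Lsm2, Lsm3, Lsm4, Rbm14 and Hnrnpd. Sf3b1, the large scaffold subunit that contacts the branch site, fell from 3318.6, 3475.9 and 3478.7 to 2889.3, 2901.9 and 2789.0. The groups did not overlap, and its siSirt6 mean was 0.835 of the Control mean (log2 -0.26 ± 0.031 SE, adjusted p = 4.76e-09). At 6.20 kb its transcript is the longest of the listed Sf3b genes. Once the trend on length and GC was removed, Sf3b1 stood at 0.07, called higher (limma adjusted p = 0.0401). Of the 5 Sf3b genes 3 were then higher, 0 lower and 2 without a call. Of the 2 Sf3a genes 1 was higher and 1 had no call.

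Among the Prpf genes, whose products belong mainly to the U4/U6.U5 tri-snRNP and to complexes that join it, Prpf31 rose by 0.39, Prpf38a by 0.27 and Prpf6 by 0.22. Prpf6, a bridging protein of the tri-snRNP, read 1417.8, 1372.8 and 1285.4 against 1571.2, 1596.8 and 1591.2, all higher in siSirt6. Prpf38b fell from 1088.0, 1037.9 and 1131.9 to 937.4, 955.6 and 864.8 (0.847 of Control, log2 -0.24 ± 0.0506 SE). Its groups did not overlap.

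The 5 listed genes of the Lsm2 to Lsm8 ring, which binds the U6 RNA, all rose. Their transcripts of 494 to 1129 nt lie in a length range (67 to 1618 nt) where 84.1% of all genes rose. After removal of the trend on length and GC, 1 of the 5 was higher, 2 were lower and 2 had no call (median -0.16). Lsm7 had the largest log2 fold change of the core class. It lies on chromosome 10 (80852821 to 80855209, minus strand) and stood at 394.2, 528.7 and 449.1 in Control and 765.3, 673.2 and 808.6 in siSirt6, a 1.64-fold rise (log2 0.72 ± 0.0958 SE, adjusted p = 8.17e-06). The spread was wide in both groups, but the lowest siSirt6 library stayed above the highest Control library. Lsm5, the least abundant core gene by count, read 136.6, 125.6 and 136.2 against 183.9, 216.5 and 146.7 (log2 0.44 ± 0.128 SE), with siSirt6 replicate 3 near the Control values. Lsm2, Lsm3 and Lsm4 rose by 0.23, 0.22 and 0.21. Lsm4, the densest of the ring genes, read 1162.1, 1187.8 and 1046.9 against 1310.2, 1315.4 and 1288.4. The call of Lsm3 was lost without Control replicate 2 (log2 0.14, adjusted p = 0.116), and likewise when siSirt6 replicate 1 was left out (0.15, adjusted p = 0.115). The 2 Lsm genes outside this ring went apart. Lsm11, of the U7 particle that trims histone mRNA, read 189.3, 169.4 and 139.1 against 231.4, 267.0 and 227.9 (log2 0.55 ± 0.114 SE), and Lsm14a, of cytoplasmic processing bodies, read 1759.3, 1819.7 and 1797.3 against 1466.4, 1318.5 and 1459.0 (log2 -0.34 ± 0.0421 SE).

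**Figure D2:**
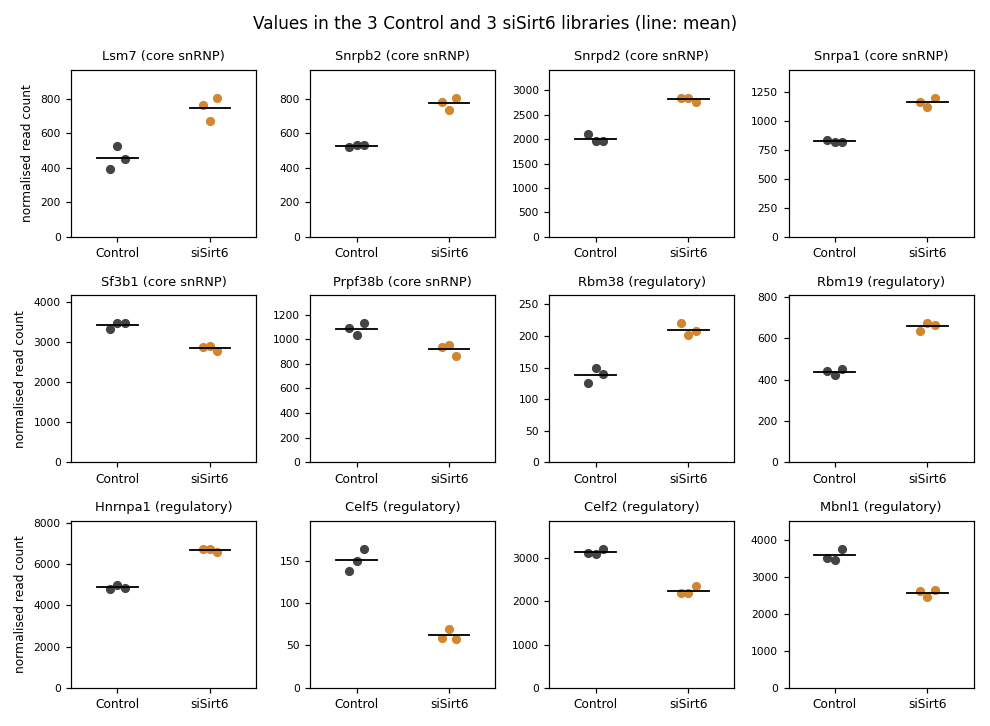
Normalised read counts (vertical axes, from 0) of 12 members in the 3 Control (dark grey) and 3 siSirt6 (orange) libraries, with a line at each group's mean. In none of the 12 do the groups overlap, beside 96.8% of all tested genes with separate ranges. Lsm7, Celf5 and Rbm38 show the widest relative spread.

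Celf5 had the largest change of any member. It belongs to the CELF family and is best known from neurons. It lies on chromosome 10 (81459227 to 81482709, minus strand) and stood at 137.6, 149.0 and 164.2 in Control and 59.3, 69.1 and 57.2 in siSirt6. The siSirt6 mean was 0.412 of the Control mean (log2 -1.27 ± 0.149 SE, adjusted p = 3.46e-09), and no library of one group came near the other. Per length its level was low, 34.2 normalised reads per kb in Control. The 4 tested neuronal markers rose, while Celf5 fell. Whether these changes are linked was not tested. Celf2, the other listed member of the family, was denser (356 per kb in Control) and went from 3128.3, 3092.3 and 3226.7 to 2196.2, 2207.1 and 2349.9 (0.715 of Control, log2 -0.48 ± 0.0335 SE). Mbnl1, the muscleblind protein that opposes CELF proteins on many muscle exons, fell as well. Its values were 3517.6, 3466.1 and 3772.3 in Control and 2634.2, 2449.4 and 2655.8 in siSirt6 (0.720 of Control, log2 -0.47 ± 0.0352 SE).

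SR genes mostly fell as deposited: Srsf4 by 0.33, Srsf11 by 0.28, Srsf2 by 0.24, Srsf10 by 0.19 and Srsf1 by 0.11 on the log2 scale. Srsf9 and Srsf7 rose. Over all tested genes 49.3% fell. Srsf9, the most abundant listed SR gene per length (1180 per kb in Control), went from 1379.7, 1293.0 and 1446.7 to 1981.6, 1833.9 and 1788.9 (1.36-fold, log2 0.44 ± 0.0444 SE), and Srsf7 by 0.22. Srsf4 read 254.7, 287.2 and 262.7 against 211.6, 218.5 and 210.2. Both genes kept their groups apart, in opposite directions. Around the SR proteins, the nuclear matrix coactivators Srrm1 (1948.6, 1928.8 and 1844.6 against 1554.4, 1693.7 and 1565.2, log2 -0.25 ± 0.04 SE) and Srrm2 (-0.15) fell. Of the kinases that phosphorylate SR proteins, Clk1 went from 896.7, 959.0 and 932.0 to 807.9, 780.4 and 803.4 (log2 -0.22 ± 0.0512 SE), Prpf4b fell by 0.27, and outside the symbol rule Srpk2 fell by 0.44 while Srpk1 rose by 0.24. With the trend on length and GC removed, 2 of the 7 listed SR genes were higher, 3 were lower and 2 had no call (median -0.01). Srsf1 then stood at 0.20, called higher, and Srsf10 at -0.01, without a call. Prpf4b then stood at 0.10, without a call, Srpk2 at -0.09 and Srpk1 at 0.43.

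Of the 10 listed hnRNP genes 3 rose and 7 fell. Hnrnpa1, which often silences exons that SR proteins promote, stood at 4819.3, 4988.9 and 4841.4 in Control and 6763.5, 6723.4 and 6596.9 in siSirt6. The groups were far apart for this gene, a 1.37-fold rise (log2 0.46 ± 0.025 SE, adjusted p = 2.17e-17). Its close relative Hnrnpa2b1, the densest member of all at 4900 per kb in Control, went slightly the other way, from 8414.9, 8367.4 and 8599.3 to 8157.8, 7870.7 and 8042.4 (log2 -0.08 ± 0.0227 SE). Hnrnph2, an X-linked gene, fell furthest: 1547.6, 1570.5 and 1584.8 against 1154.0, 1224.7 and 1193.7 (0.760 of Control, log2 -0.40 ± 0.0416 SE). Hnrnpd rose by 0.20 and Hnrnpc by 0.11, the latter turning to -0.01 under listed totals. Hnrnpul1 and Hnrnpul2 (-0.22 each), Hnrnpll (-0.20), Hnrnpk (-0.14) and Hnrnpl (-0.13) fell. Ptbp1 was nearly level, at 4299.2, 4513.8 and 4530.5 against 4241.1, 4316.3 and 4085.7: the ranges overlapped, the log2 fold change was -0.08 ± 0.0287 SE, and the call was lost without Control replicate 2 (adjusted p = 0.0601), without Control replicate 3 (0.0558) and without siSirt6 replicate 3 (0.0761). Its relative Ptbp3 fell by 0.24.

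In the deposited values the factors that mark the 3′ splice site went with the core genes in direction. U2af1, the small subunit that reads the terminal AG of the intron, went from 1142.6, 1094.4 and 1138.6 to 1410.1, 1432.9 and 1409.1 (1.26-fold, log2 0.33 ± 0.0426 SE). U2af2, the large subunit that binds the pyrimidine tract, read 2975.1, 2869.3 and 2746.7 against 3146.4, 2977.2 and 3059.6 (log2 0.10 ± 0.033 SE). The gap between its groups was tiny: the change turned to -0.02 under listed totals and the call was lost without Control replicate 3 (0.07, adjusted p = 0.0689). Once the trend on length and GC was removed, U2af1 stood at -0.05, without a call, and U2af2 at -0.08, called lower. Luc7l2, of the U1-associated LUC7 family, fell from 1895.9, 1754.5 and 1854.3 to 1504.0, 1571.1 and 1536.1 (log2 -0.25 ± 0.0395 SE).

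The numbered Rbm genes share an RNA recognition motif and little else. As deposited, 4 rose and 7 fell, beside 50.5% and 49.3% of all tested genes. With the trend on length and GC removed, 4 of the 11 were higher, 3 were lower and 4 had no call (median 0.05). Rbm25 (0.02), Rbm27 (0.08) and Rbm33 (0.05) changed sign there, without a call. The values that follow are as deposited. Rbm38, an RNA-stability factor known as a p53 target, read 124.9, 149.9 and 139.1 in Control and 220.5, 202.1 and 207.1 in siSirt6 (1.52-fold, log2 0.60 ± 0.113 SE). Rbm19, a nucleolar protein of ribosome assembly, read 443.0, 420.6 and 452.0 against 637.8, 674.2 and 665.0 (log2 0.59 ± 0.0643 SE). Rbm8a, of the exon junction complex, read 1248.0, 1235.5 and 1196.6 against 1496.1, 1494.8 and 1407.0 (log2 0.26 ± 0.0426 SE). No siSirt6 value of these genes lay below a Control value, and Rbm14 followed at 0.21. Rbm39 (2913.6, 2979.3 and 3051.8 against 2600.6, 2528.7 and 2532.0), Rbm5 and Rbm25, which are known from splicing, fell by 0.22, 0.21 and 0.20. Rbm27, Rbm33 and Rbm43 fell by 0.25, 0.24 and 0.25. Rbm43 lost its call without siSirt6 replicate 1 (-0.19, adjusted p = 0.0714). Rbm41 had the largest fall of the family (log2 -0.64 ± 0.239 SE) but low values that overlapped, 36.1, 70.1 and 55.0 against 39.6, 32.0 and 28.1; its call was lost without Control replicate 2 (-0.43, adjusted p = 0.125) or siSirt6 replicate 3 (-0.53, adjusted p = 0.0528).

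Overlap between the groups was seen in 2 members, Rbm41 and Ptbp1; the other 69 had separate ranges, beside 96.8% of all tested genes (49% higher and 47.8% lower). With the adjustment extended to the 55450 annotated genes, 28 of 29 core and 36 of 40 regulatory genes passed, beside 90.4% of the tested genes; Lsm3, Ptbp1, U2af2, Rbm41 and Rbm43 did not.

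Core and regulatory genes differ in length, and length went with fold change across the whole table. The median transcript was 1420 nt for core genes, 3356 nt for regulatory genes and 3122 nt for all tested genes. Across the 7130 tested genes with a length, Spearman's rho of log2 fold change with length was -0.44, and across the 71 members it was -0.58; genes are not independent replicates, and these genes share the same 6 libraries. Of the 29 core genes 16 lay in the shortest of 5 length groups of about equal size (67 to 1618 nt), where 84.1% of all genes rose, and all 16 rose. Of the regulatory genes 9 of 10 fell between 3726 and 5250 nt and 8 of 9 from 5253 nt, where 33.5% and 20.2% of all genes rose.

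Between 1619 and 3723 nt, the range with at least 5 genes of each class in both of its length groups, 9 of 10 core genes rose and 1 fell (median 0.29), while 7 of 19 regulatory genes rose and 12 fell (median -0.13). Among all 2851 tested genes of these lengths 1624 rose and 1223 fell, with a median of 0.17. The core genes here were Snrpb2, Snrpd3, Snrpn, Sf3a2, Sf3a3, Sf3b2, Sf3b4, Prpf6, Prpf31 and the falling Prpf38b. The regulatory genes that fell at these lengths included Srsf2, Srsf4, Srsf11, Hnrnpk and Hnrnpl. These are counts over few genes and carry no test.

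**Figure D3:**
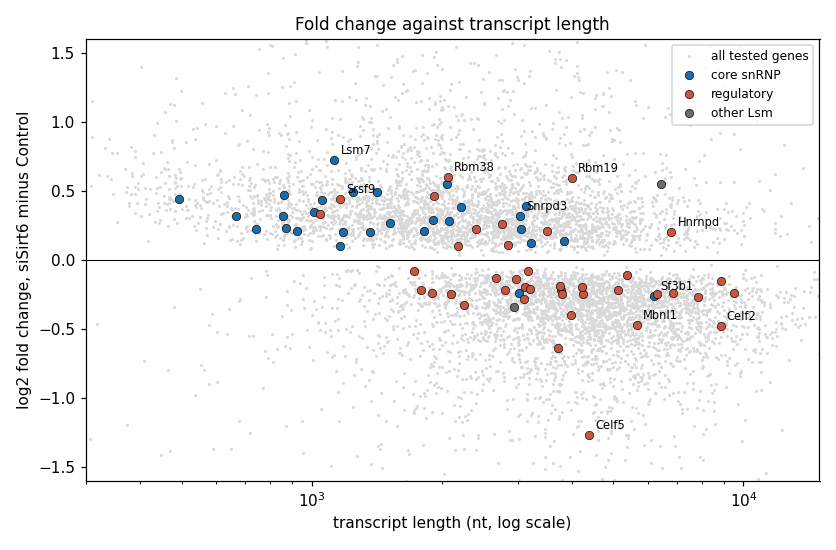
Log2 fold change (siSirt6 minus Control) against transcript length in nt on a log axis, for core snRNP (blue), regulatory (red) and other Lsm (grey) genes over all tested genes (light grey; those beyond the axes are not drawn). Short transcripts lie mostly above zero and long ones below; most core genes are in the short part, and Sf3b1, with a long transcript, lies below zero.

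After each library was freed of its trend with length and GC, the difference between the class medians went from 0.49 to 0.15. The core median became 0.09 and the regulatory median -0.05, beside -0.01 for all tested genes. Of the core genes 14 were then higher and 5 lower, and of the regulatory genes 10 were higher and 19 lower; over all tested genes 36.5% were higher and 36.3% lower. In all, 41 of the 71 members kept their direction and call. Snrpb2 (0.51), Prpf31 (0.42), Snrpd3 (0.36), Lsm7 (0.34) and Snrpd2 (0.22) stayed higher among core genes, and Rbm19 (0.63), Hnrnpd (0.54), Rbm38 (0.44) and Hnrnpa1 (0.35) among regulators. Celf5 (-1.18), Srsf4 (-0.50), Srsf2 (-0.39) and Clk1 (-0.31) stayed lower, and Celf2 (-0.12) and Mbnl1 (-0.15) kept a small part of their fall. Of the 18 members whose sign changed, 9 were called in the new direction, among them Snrpb (-0.28), Lsm4 (-0.22), Lsm2 (-0.17), Snrpa (-0.14) and U2af2 (-0.08), then lower, and Srsf1 (0.20), Srrm2 (0.12) and Sf3b1 (0.07), then higher. Another 12 members had no call once the trend was removed and no change of sign: Snrpc (0.02, adjusted p = 0.604), Snrpd1 (0.01, adjusted p = 0.794), Snrpg (0.14), Sf3a3 (0.05), Sf3b4 (0.06), Prpf38a (0.09) and Lsm5 (0.07) of the core genes, and Srsf9 (0.07, adjusted p = 0.175), Luc7l2 (-0.03, adjusted p = 0.462), Srsf10 (-0.01), Hnrnpul2 (0.00) and Rbm41 (-0.45) of the regulators. What underlies the trend with length was not tested.

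**Figure D4:**
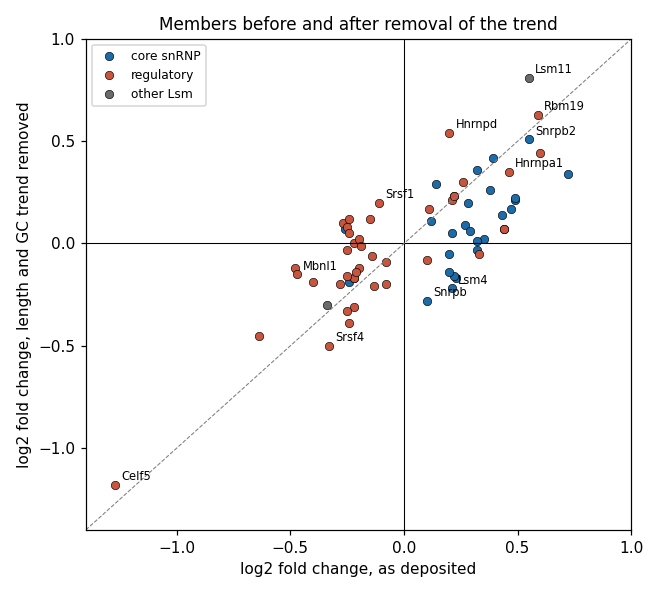
Log2 fold change of 70 members as deposited (horizontal axis) and after removal of the length and GC trend (vertical axis), coloured by class; the dashed line marks equal values. Core genes lie mostly below the line and long regulators above it, while Celf5, Rbm19 and Snrpb2 stay close to it.

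Other genes of the pathway came from lists that the symbol rule does not take. Of 38 listed spliceosome and snRNP proteins 30 rose and 8 fell, with a median log2 fold change of 0.21; with the trend removed 14 were higher and 9 lower, with a median of 0.07. Ctnnbl1, a partner of the PRP19 complex, rose from 587.4 ± 35.3 to 844.7 ± 41.6 (SD, n = 3; log2 0.52) and the cyclophilin Ppih of the tri-snRNP from 67.1 ± 18.7 to 116.3 ± 38.3 (log2 0.77). The groups of Ppih overlapped, and its call was lost without Control replicate 1 (Ppih adjusted p = 0.0508). Mfap1a and Cwc25 fell by 0.32 and 0.28. Of 15 genes of snRNP assembly and snRNA modification 13 rose and 2 fell (median 0.34): Coil, the scaffold of Cajal bodies, rose from 227.3 ± 10.9 to 368.8 ± 27.7 (SD, n = 3; log2 0.69), and Wdr77, which helps methylate Sm proteins, by 0.59, while the cap hypermethylase Tgs1 fell by 0.50 and the cap-binding Ncbp1 by 0.18. Once the trend was taken out, 10 genes of this list were higher, 2 were lower and 3 had no call (median 0.16). Coil and Wdr77 then stood at 0.71 and 0.72, and Tgs1 and Ncbp1 at -0.27 and -0.15. In the exon junction complex 5 of 7 rose and 2 fell (median 0.20), with Magoh and Magohb at 0.40 each, Upf3b at -0.29 and Sap18 at -0.14; with the trend removed 1 gene of this list was higher and 2 were lower, Sap18 was at 0.12, and Magoh (0.05, adjusted p = 0.425) and Magohb (0.11, adjusted p = 0.214) lost their calls.

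Of 39 tested splicing regulators outside the rule 12 rose and 27 fell, with a median of -0.17. Akap17b fell from 136.0 ± 14.2 to 71.9 ± 18.9 (SD, n = 3; log2 -0.93) and Rbpms2, an RNA-binding protein of smooth muscle, from 180.4 ± 5.26 to 120.6 ± 7.67 (log2 -0.58). Pcbp4 rose from 3917 ± 82.0 to 5853 ± 134 (log2 0.58) and the epithelial splicing regulator Esrp2 from 66.1 ± 5.55 to 93.6 ± 10.6 (log2 0.49). With the trend removed, 13 of these regulators were higher and 13 lower, with a median of -0.02.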

How the data were processed

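Deposited values, 1 table per library, are a normalised signal per gene from the authors that has the form of whole reads divided by 1 factor per library: 100% of the values were whole multiples of the library's step, within 0.01 reads. Per the submitters' processing notes the tools were HTSeq, Cufflinks, HISAT2 and Trimmomatic, and the build mm10; per the labels' protocols the library kit was stranded, while the counting mode, the factors and the choice of rows are not given in the sources used here. Row order followed the limma p (Spearman rho 0.988).

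Groups were compared with limma 3.58.1 (R 4.3.3; robust moderation with a mean trend; 2-sided) on the log2 of value + 1, 3 siSirt6 against 3 Control libraries, over the 7179 genes with at least 10 in at least 3 libraries, with Benjamini-Hochberg adjustment. Fold changes on this scale understate low genes; N-fold values are ratios of group means. Length and GC content are those of the longest protein-coding transcript (or, without one, the longest transcript) in GENCODE vM21 (GRCm38), found for 7331 of 7384 genes; the trend was removed per library with natural splines of 5 degrees of freedom. edgeR 4.0.16 and DESeq2 1.42.0 ran on reads recovered from 5 libraries; siSirt6 replicate 1 was left out because its step (0.988823) was not accepted in a check of recovered reads. They called 6925 and 6238 of 7179 genes. The limma script was tested on simulated data. Members, classes and lists were chosen with earlier results of these data known. Any member could be named; values in every library were given for the 6 largest rises and falls of each class, the densest gene of each family and the other Lsm genes, and from each pathway list the 2 largest rises and falls past the threshold were named. Srpk1 and Srpk2 were named outside that rule, as kinases of SR proteins. The named alternatives covered scaling, pseudocount, filter, replicates, replicate block, length and GC, test and class membership. Reads shared with pseudogenes or overlapping genes could not be separated. The values of 1 core member are not reported here; it stays in the fit and the counts.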

Additional observations from a re-analysis of the deposited data

How the results depend on the processing

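No setting tried changed the order of the classes: the core median stayed above the regulatory one in each. Scaling to listed totals moved the median of all genes from 0.08 to -0.03; it gave 17 core and 7 regulatory rises and medians of 0.162 and -0.324, and reversed Hnrnpc (-0.014), Snrpb (-0.022) and U2af2 (-0.022). For the lists outside the rule it gave 18 rises and a median of 0.095 (spliceosome), 3 and 0.083 (exon junction), 0.223 (snRNP assembly), and 7 and -0.293 (regulators). TMM moved the regulatory median to -0.232, the spliceosome list to 0.187 and the regulators outside the rule to -0.201. With the length and GC trend removed, 14 core genes rose and 5 fell, 19 regulators fell, the medians were 0.092 and -0.054 and their difference 0.146; lists outside the rule gave 14 rises and 0.068 (spliceosome), 1 rise and 0.048 (exon junction), 0.164 (snRNP assembly), and 13 falls and -0.024 (regulators). That setting reversed Lsm2 (-0.166), Lsm3 (-0.159), Lsm4 (-0.219), Sf3b6 (-0.046), Snrpa (-0.140), Snrpb (-0.284), Snrpe (-0.030), U2af1 (-0.051), U2af2 (-0.084), Prpf4b (0.100), Ptbp3 (0.124), Rbm25 (0.020), Rbm27 (0.081), Rbm33 (0.052), Sf3b1 (0.070), Srrm2 (0.120), Srsf1 (0.20) and Sap18 (0.125). On 5 libraries, edgeR gave medians of 0.235 (core), -0.222 (regulatory), 0.181 (spliceosome) and 0.133 (exon junction), and DESeq2 0.234, -0.223, 0.180 and 0.132, with 19 and 3 rises in the latter lists. Leaving out Rbm genes left 7 regulatory rises. Without 1 library, core rises were 25 to 26, regulatory falls 27 to 29, the difference of medians 0.462 to 0.513, the median of regulators outside the rule -0.195 to -0.130 (the latter without siSirt6 replicate 1), and Sirt6 -2.309 to -2.057. The cause of these shifts was not tested. Samples with the same number did not deviate together (correlations -0.019, 0.027 and -0.001; own number best for 1 of 3); with the replicate block core genes gave 26 rises and 3 falls, regulators 11 and 29. Pseudocounts of 0.5 and 5, TMM and no filter changed no member's call, nor did a filter at 5 CPM for the 70 members it kept; edgeR lost 4 calls and DESeq2 6. Depth outside the listed genes is unknown.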
